A study of Homo sapiens with 6 samples.

Results

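The matrix metalloproteinases (MMPs) and their tissue inhibitors (TIMPs) were followed through HMGA2 knockdown in MDA-MB-231, a human triple-negative breast cancer (TNBC) cell line of mesenchymal character. Of the 61806 genes in the deposited table, 10 were chosen by gene symbol: the proteases MMP1, MMP14, MMP15, MMP16, MMP17, MMP19 and MMP24 and the inhibitors TIMP1, TIMP2 and TIMP3. RNA was sequenced from 3 lines with 2 libraries each, a control line carrying shNC and lines carrying the HMGA2 short hairpins shHMGA2-1 or shHMGA2-2. No other treatment was given in the labels, and all lines were MDA-MB-231. The study's methods describe stable knockdown lines made by lentiviral infection under puromycin and expanded from a single clone, so the effect of a hairpin and of the clone that carried it cannot be told apart. Nothing in the labels says that the libraries of a line came from separate cultures, and p-values then measure only the spread between these libraries, which may be technical. The control libraries are named as wild type in their descriptions and shNC in their titles, and the titles were followed. The descriptions of the shHMGA2-1 libraries carry the name SH2-C9, which could be read as the other hairpin, so which hairpin a knockdown line holds rests on the titles alone.

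MMPs are zinc-dependent endopeptidases that cut collagens, other matrix proteins and cell surface proteins. They are made as inactive proenzymes, either secreted or held at the cell membrane, and a prodomain must be removed before they act. TIMPs bind the active site of the mature enzyme, so the supply of inhibitor relative to protease bears on matrix breakdown during tumour invasion. RNA levels report the supply of transcripts and not the activation of the enzymes.

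Each library held 16461178 to 17167293 counts, and mitochondrial genes took 6.74% to 7.86% of them. HMGA2 counts were 2126 and 2161 for shNC, 858 and 989 for shHMGA2-1, then 435 and 482 for shHMGA2-2. VIM, the mesenchymal filament vimentin, had 35046 to 38106 counts in every library, while CDH1 and PGR did not exceed 4 and ESR1 did not exceed 12. ERBB2, whose protein defines another subtype, had 1126 to 1909 counts. EPCAM, an epithelial adhesion protein expected to be low in this line, had 127 to 146 counts in shNC and 133 to 137 in shHMGA2-2 but 274 and 302 in shHMGA2-1, where it was 2.00-fold higher (log2 fold change 1.00 ± 0.14 SE, adjusted p = 6.5e-06, edgeR). Of 9 fibroblast markers, 4 were at 0 in every library (PDGFRA, DCN, LUM and POSTN), and COL1A2, COL3A1 and FAP did not exceed 5 counts. COL1A1 had 53 and 78 counts for shNC, 237 and 184 for shHMGA2-1, then 88 and 76 for shHMGA2-2. PDGFRB had 21 and 33, 10 and 9, and 53 and 70 in that order. The summed level of the list was 0.555 to 0.796 FPKM, a count scaled by gene length and library total, in shNC. It was 1.31 to 1.62 in shHMGA2-1 and 1.08 to 1.12 in shHMGA2-2, and came mostly from COL1A1 and PDGFRB. The 8 macrophage and leukocyte markers summed to 0.257 to 0.616 FPKM, with TYROBP at 0 and CSF1R highest at 26 counts in shNC replicate 1. The 6 endothelial markers summed to 0.458 to 0.657, with ERG at 0 and KDR at 44 to 61 counts. PECAM1 had 14 and 11 counts in shNC and 2 and 0 in each knockdown line. It was lower in shHMGA2-1 and shHMGA2-2 (log2 fold change -3.56 in each, adjusted p = 0.0044 and 0.0021, edgeR), from few counts. Other cell types are known sources of MMPs and TIMPs in tumours, and their part in the results below was not tested.

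For reference beside the MMP1 values, the RT-qPCR primers that the study used for MMP1 are shown, since MMP1 changed most among the proteases. They matched the only protein-coding MMP1 transcript of GENCODE 29 without mismatch and no transcript of another gene, in exon 2 (forward, chr11:102797326-102797347) and exon 3 (reverse, chr11:102797118-102797139) in GRCh38, where the gene runs on the minus strand. Both are written 5′ to 3′, the reverse primer as the complement of the transcript.
MMP1 forward: atgaagcagcccagatgtggag
MMP1 reverse: tggtccacatctgctcttggca

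The RefSeq promoter table (GRCh38.p14) held 5 of the 10 genes, MMP14, MMP15, MMP24, TIMP1 and TIMP3. Stretches upstream of the start are printed for TIMP3 and TIMP1, the inhibitors that were higher in shHMGA2-2, and for MMP14, the most abundant protease, each on the plus strand up to the base before the gene begins in the deposited table. Capitals mark CpG dinucleotides, a feature chosen after the values were seen. TIMP3 is shown at chr22:32801455-32801704, TIMP1 at chrX:47582186-47582407 and MMP14 at chr14:22836335-22836559.
TIMP3: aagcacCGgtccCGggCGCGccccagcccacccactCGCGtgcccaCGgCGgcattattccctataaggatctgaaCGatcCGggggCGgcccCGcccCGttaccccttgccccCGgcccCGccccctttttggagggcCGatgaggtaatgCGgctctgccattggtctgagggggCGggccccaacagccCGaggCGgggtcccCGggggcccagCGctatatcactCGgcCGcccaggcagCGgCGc
TIMP1: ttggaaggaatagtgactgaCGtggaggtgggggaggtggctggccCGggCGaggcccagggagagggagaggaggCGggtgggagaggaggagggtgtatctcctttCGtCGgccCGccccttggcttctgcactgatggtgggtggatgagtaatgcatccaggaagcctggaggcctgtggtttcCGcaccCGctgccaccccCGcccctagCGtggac
MMP14: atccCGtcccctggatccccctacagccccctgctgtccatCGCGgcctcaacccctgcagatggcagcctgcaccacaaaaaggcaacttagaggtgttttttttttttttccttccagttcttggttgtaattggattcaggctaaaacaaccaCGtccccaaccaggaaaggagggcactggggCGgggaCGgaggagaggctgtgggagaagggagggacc

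The printed stretch of TIMP3 held 26 CpGs in 250 bases, that of TIMP1 11 in 222 and that of MMP14 6 in 225. Over the 250 bases before the RefSeq start, the count of CpGs stood at percentile 81.4 among 35116 promoters for TIMP3, at 52.4 for TIMP1 and at 42.4 for MMP14. MMP15 and MMP24 held 31 and 25 CpGs, at percentiles 89.8 and 79.4. MMP14 carried an unbroken run of 14 A or T bases, at percentile 94.5, which is the kind of sequence that the AT-hooks of HMGA2 are known to bind. In the other windows the longest such run was 5 or 6 bases. The whole MMP14 window was not rich in A and T, with a share of 43.2% beside a median of 42% over all promoters. The AP-1 motif TGANTCA, searched on both strands, was in none of the 5 windows and in 6.57% of all promoters. That pattern is strict and does not count near matches, such as TGAGTAA in the printed stretch of TIMP1, so AP-1 sites may be missed. The TATA motif TATAAA on the gene strand was in none of the 5 and in 6.80% of all. These are descriptions of letters in a window and say nothing about binding.

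In the control line, the family was dominated by a few transcripts. The mean level in shNC was 71.3 ± 0.567 FPKM for TIMP2 (SD, n = 2), 49.2 ± 1.11 for MMP14, 25.0 ± 1.26 for TIMP1, 3.44 ± 0.151 for MMP1 and 1.33 ± 0.0169 for MMP16. MMP19 followed at 0.542 ± 0.160 FPKM, then MMP15 at 0.299 ± 0.108 and MMP24 at 0.283 ± 6.6e-05, and the libraries of MMP15 and MMP24 overlapped. MMP17 was at 0.132 ± 0.125 FPKM and TIMP3 at 0 in both libraries. FPKM divides by the exonic size of the gene in the annotation. Levels of different genes can therefore be compared only as far as that size matches the transcripts made, and this also holds for sums over genes.

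The order changed in the knockdown lines. In shHMGA2-1, TIMP1 at 32.8 ± 4.79 FPKM and MMP14 at 31.0 ± 1.80 overlapped, as did MMP1 at 1.13 ± 0.00202 and MMP19 at 1.07 ± 0.254. In shHMGA2-2, TIMP1 at 50.6 ± 4.14 FPKM stood above MMP14 at 34.9 ± 0.987 in both libraries. In that line MMP15, TIMP3, MMP16, MMP19 and MMP24 formed a run from 0.708 to 0.456 FPKM in which each overlapped its neighbour, and MMP1 had fallen below all of them to 0.0775 ± 0.0473.

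**Figure D1:**
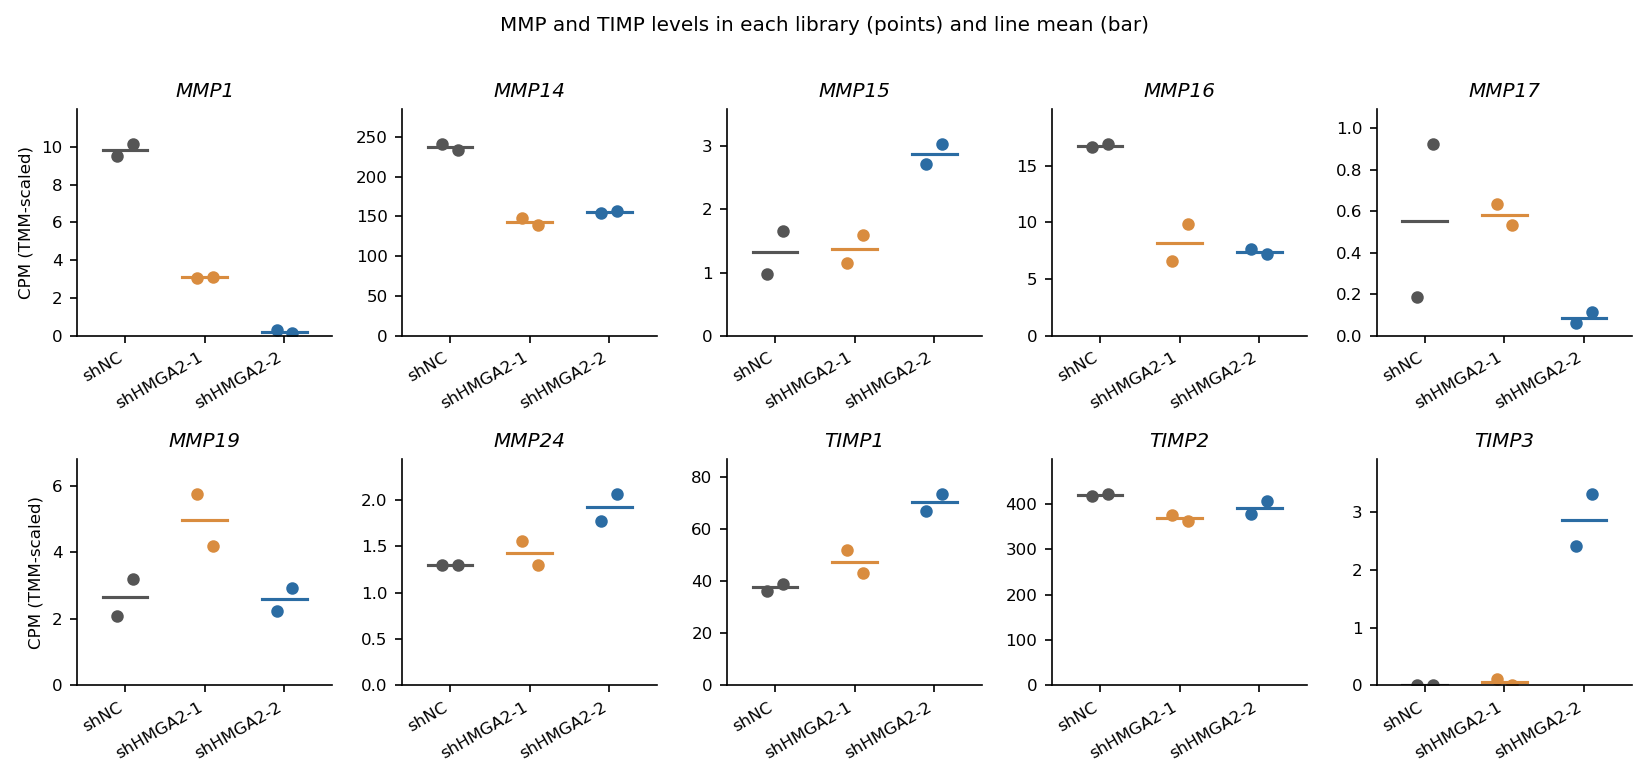
Level of each MMP and TIMP gene in CPM (counts scaled to library size by TMM) on a linear axis from 0, with a point for each library and a bar at the mean of the 2 libraries of a line. MMP1 steps down from shNC to shHMGA2-1 to shHMGA2-2, MMP14 and MMP16 are lower in both knockdown lines, and TIMP3 is present in shHMGA2-2 with 41 and 58 counts and near 0 elsewhere.

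Against shNC, MMP1, MMP14 and MMP16 were lower and TIMP1 was higher in both knockdown lines, while the remaining genes changed in a single line or in neither. All 10 genes passed the filter on low counts, TIMP3 only through the shHMGA2-2 libraries, so that TIMP3 had to differ. The scarce MMP17 passed only through libraries of the other lines, which favours a lower value in shHMGA2-2. In shHMGA2-1, 4 of the 10 were lower and 2 were higher at an adjusted p under 0.05 (edgeR quasi-likelihood test, Benjamini-Hochberg over 16110 genes), where 17.6% of all genes tested were lower and 15.8% were higher. At least 2-fold, 2 were lower and 0 were higher, against 3.59% and 4.89% of all genes. In shHMGA2-2, 4 were lower and 3 were higher, against 29.2% and 29.5% of all genes. At least 2-fold, 3 were lower and 2 were higher there, against 9.65% and 11.7%. A call in shHMGA2-2 was therefore common among all genes.

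By group, 3 of 7 proteases were lower and 1 was higher in shHMGA2-1, with a median log2 fold change of 0.05 beside 0.01 over all genes. In shHMGA2-2, 4 of 7 were lower and 1 was higher, with a median of -0.62 beside 0.03. Of the 3 inhibitors, 1 was lower and 1 was higher in shHMGA2-1, where TIMP3 was at or under 3 counts in both groups and the median of the other two was 0.07. In shHMGA2-2, 0 were lower and 2 were higher, of which TIMP3 had to differ by the filter. The median there was 0.90, also with TIMP3 at its lower bound, and without TIMP3 it was 0.40. Both lines were compared with the same shNC libraries, so their changes are not independent of each other.

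**Figure D2:**
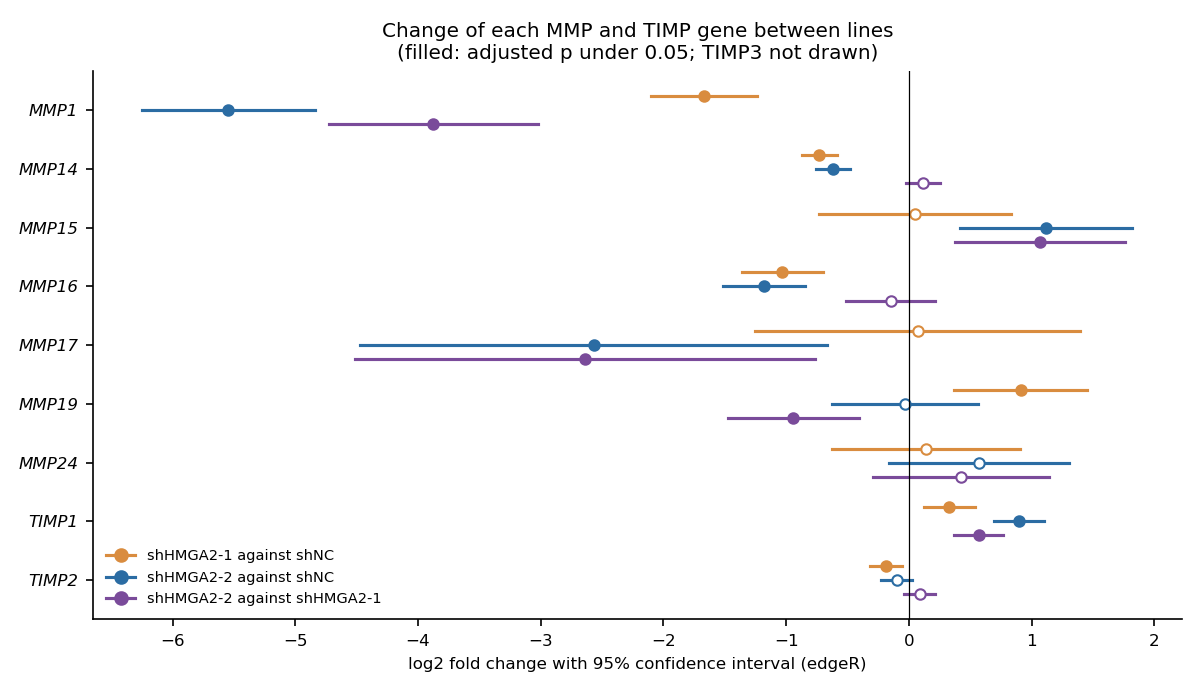
log2 fold change (x axis) of 9 genes (y axis) between lines with its 95% confidence interval, edgeR, filled points having an adjusted p under 0.05. The MMP1 intervals against shNC run from -2.10 to -1.24 in shHMGA2-1 and from -6.25 to -4.84 in shHMGA2-2, while the intervals of MMP14 and MMP16 in the lines overlap; TIMP3 is not drawn because shNC had no count.

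MMP1 (ENSG00000196611, chromosome 11, 102789401 to 102798160, minus strand) encodes interstitial collagenase, a secreted enzyme that opens the triple helix of fibrillar collagen. Its counts were 155 and 165 for shNC, 53 and 53 for shHMGA2-1, then 5 and 2 for shHMGA2-2. The lines did not overlap, and shHMGA2-2 stood apart from the other two. MMP1 fell 3.18-fold in shHMGA2-1 (log2 fold change -1.67 ± 0.21 SE, adjusted p = 7.4e-07) and 46.7-fold in shHMGA2-2 (-5.54 ± 0.34, adjusted p = 7.2e-13). The direct comparison of shHMGA2-2 with shHMGA2-1 gave -3.87 ± 0.41 (adjusted p = 2.4e-08). With only 7 counts in shHMGA2-2 the size of the fall is loosely set. The ratio of shNC to shHMGA2-2 was 48.3 with a 95% Clopper-Pearson interval of 23.2 to 121 from counting error alone. Without shHMGA2-2 replicate 1, the log2 fold changes against shNC and shHMGA2-1 were -6.33 and -4.66. The antisense gene WTAPP1 overlaps MMP1 and had 0 to 8 counts.

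MMP14 (ENSG00000157227, chromosome 14, 22836560 to 22849041, plus strand) encodes a transmembrane collagenase that also activates the gelatinase proMMP2 at the cell surface. Its counts were 3922 and 3800 for shNC, 2564 and 2356 for shHMGA2-1, then 2601 and 2728 for shHMGA2-2. Every knockdown library lay below both controls. MMP14 fell 1.66-fold in shHMGA2-1 (log2 fold change -0.73 ± 0.07 SE, adjusted p = 5.9e-09) and 1.53-fold in shHMGA2-2 (-0.62 ± 0.07, adjusted p = 2.7e-08). Between the knockdown lines the log2 difference was 0.11, with a 95% interval of -0.03 to 0.25 (adjusted p = 0.17). Without shHMGA2-1 replicate 1 that difference was called at 0.16 (adjusted p = 0.0385).

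The other membrane-bound proteases moved in different ways. MMP16 (ENSG00000156103, chromosome 8, 88032011 to 88328025, minus strand), a transmembrane MMP, had 270 and 275 counts for shNC, 114 and 167 for shHMGA2-1, then 129 and 125 for shHMGA2-2. Its knockdown libraries all lay below the controls, and the lines overlapped each other. MMP16 fell 2.05-fold in shHMGA2-1 (log2 fold change -1.03 ± 0.16 SE, adjusted p = 1.7e-05) and 2.27-fold in shHMGA2-2 (-1.18 ± 0.16, adjusted p = 1e-06). The difference between the knockdown lines was -0.15, with an interval of -0.51 to 0.21. In shHMGA2-1 the libraries differed, and the log2 fold change was -0.77 without replicate 1 and -1.35 without replicate 2, both called, so that the fall was under 2-fold in the first case, as it was with upper quartile scaling (-0.97). With unfiltered limma on log2(FPKM + 1) the shHMGA2-1 call was lost (-0.47, adjusted p = 0.0946).

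MMP15 (ENSG00000102996, chromosome 16, 58025754 to 58046901, plus strand), another transmembrane member, had 16 and 27 counts for shNC, 20 and 27 for shHMGA2-1, then 46 and 53 for shHMGA2-2. Only the shHMGA2-2 libraries stood apart. MMP15 rose 2.17-fold in shHMGA2-2 (log2 fold change 1.12 ± 0.34 SE, adjusted p = 0.0069), and its value in shHMGA2-1 was 0.05 with an interval of -0.73 to 0.83. The direct comparison of the lines gave 1.07 ± 0.34 (adjusted p = 0.01). Without shNC replicate 1 or shHMGA2-2 replicate 2 the shHMGA2-2 call was lost (0.78 and 1.03). Without shHMGA2-1 replicate 1 or shHMGA2-2 replicate 2 so was that between the lines (0.85 and 0.98). The shHMGA2-2 call was kept in 8 of 11 alternatives and that between the lines in 7.

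MMP17 (ENSG00000198598, chromosome 12, 131828393 to 131851783, plus strand), which is held in the membrane by a lipid anchor, was scarce. Its counts were 3 and 15 for shNC, 11 and 9 for shHMGA2-1, then 1 and 2 for shHMGA2-2. The control libraries lay on both sides of shHMGA2-1, and shHMGA2-2 was at or under the floor of 3 counts that an observed 0 could hide. The ratio of shNC to shHMGA2-2 was 6.34 with a counting interval of 1.85 to 33.6, and that of shHMGA2-1 to shHMGA2-2 was 6.67 (1.98 to 35.1). Both passed edgeR's test (adjusted p = 0.02 and 0.018). MMP17 entered that test only through libraries of shNC and shHMGA2-1, where it was higher, so these calls are weak support for a difference. The shNC comparison rested on shNC replicate 2, without which the log2 fold change was -1.02 (adjusted p = 0.528), and was also lost without either shHMGA2-2 library (-2.20, adjusted p = 0.132, and -3.08, adjusted p = 0.0738). Without shNC replicate 1 it was -3.31. The comparison between the knockdown lines was lost without either shHMGA2-2 library too (-2.27 and -3.15). Of 11 alternatives, 6 kept the call against shNC and 7 kept that between the knockdown lines.

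MMP24 (ENSG00000125966, chromosome 20, 35226690 to 35276998, plus strand), a transmembrane member best known from the nervous system, had 21 and 21 counts for shNC, 27 and 22 for shHMGA2-1, then 30 and 36 for shHMGA2-2. The shHMGA2-2 libraries were the highest, but no comparison passed the test. The log2 fold change was 0.14 (95% interval -0.62 to 0.91) in shHMGA2-1 and 0.57 (-0.16 to 1.30) in shHMGA2-2. MMP24 shares its locus with the antisense gene MMP24OS, which had 622 to 967 counts. The strand setting of the counting is not given in the sources used here, so reads of these genes may not be told apart.

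MMP19 (ENSG00000123342, chromosome 12, 55835433 to 55842966, minus strand), a secreted member that cuts basement membrane proteins, had 34 and 52 counts for shNC, 100 and 71 for shHMGA2-1, then 38 and 51 for shHMGA2-2. Here shHMGA2-1 was the line that stood apart, and shNC and shHMGA2-2 overlapped. MMP19 rose 1.88-fold in shHMGA2-1 (log2 fold change 0.91 ± 0.26 SE, adjusted p = 0.0088). The value in shHMGA2-2 was -0.03 (interval -0.62 to 0.56), a sign that turns with upper quartile scaling. The lines differed by -0.94 ± 0.26 (adjusted p = 0.0039). The shHMGA2-1 call was lost without shNC replicate 1 (0.63, adjusted p = 0.158) or shHMGA2-1 replicate 1 (0.66, adjusted p = 0.124), and with DESeq2 (adjusted p = 0.0548). The difference between lines was lost without shHMGA2-1 replicate 1 (-0.69) or shHMGA2-2 replicate 1 (-0.77). Among 11 alternatives, 7 kept the shHMGA2-1 call and 8 kept that between the lines. The opposite-strand gene TMEM198B overlaps MMP19 and had 68 and 76 counts for shNC, 134 and 96 for shHMGA2-1, then 142 and 134 for shHMGA2-2, and the part of shared reads was not tested.

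Among the inhibitors, TIMP1 rose in both lines, TIMP2 stayed within a narrow range, and TIMP3 appeared in shHMGA2-2. TIMP1 (ENSG00000102265, chromosome X, 47582408 to 47586789, plus strand) inhibits most secreted MMPs and is a weak inhibitor of the membrane-bound ones. Its counts were 591 and 635 for shNC, 899 and 729 for shHMGA2-1, then 1134 and 1283 for shHMGA2-2. The lines did not overlap, and both shHMGA2-2 libraries were the highest. TIMP1 rose 1.26-fold in shHMGA2-1 (log2 fold change 0.33 ± 0.10 SE, adjusted p = 0.013) and 1.86-fold in shHMGA2-2 (0.90 ± 0.10, adjusted p = 2.7e-08), and the direct comparison gave 0.57 ± 0.10 (adjusted p = 2.4e-05). The smaller rise in shHMGA2-1 was called in 9 of 13 alternatives. It was not called, among others, without shNC replicate 1 (0.27), shNC replicate 2 (0.38) or shHMGA2-1 replicate 1 (0.19).

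TIMP2 (ENSG00000035862, chromosome 17, 78852977 to 78925387, minus strand) inhibits MMPs and also joins MMP14 to proMMP2 in the complex that activates the latter. Its counts were 6776 and 6855 for shNC, 6515 and 6135 for shHMGA2-1, then 6370 and 7090 for shHMGA2-2. The shHMGA2-1 libraries were the lower ones beside shNC, and the shHMGA2-2 libraries lay on both sides of it. TIMP2 fell by 0.19 on the log2 scale in shHMGA2-1 (SE 0.06, adjusted p = 0.022). That call was kept in only 6 of 13 alternatives. Among others, it was lost with upper quartile scaling (-0.12, adjusted p = 0.13) and without either shNC library (-0.20 and -0.18). In shHMGA2-2 the value was -0.10, with an interval of -0.23 to 0.03, and its sign turned with upper quartile scaling, which moved the median of all genes by 0.11 in that comparison.

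TIMP3 (ENSG00000100234, chromosome 22, 32801705 to 32863041, plus strand) binds to the extracellular matrix and also inhibits proteases of the ADAM families. It had 0 and 0 counts for shNC, 2 and 0 for shHMGA2-1, then 41 and 58 for shHMGA2-2. The last line alone had counts above the floor of 3. Against that floor in each shNC library, TIMP3 was at least 15.6-fold higher in shHMGA2-2. The ratio of shHMGA2-2 to shHMGA2-1 was 49.4 with a 95% Clopper-Pearson interval of 13.3 to 414 from counting error alone. Both comparisons passed edgeR's test (adjusted p = 1.3e-07 and 5.6e-07), as a gene that passed the filter through this line had to. In level it reached 0.651 ± 0.155 FPKM (SD, n = 2), far under TIMP1 and TIMP2. The opposite-strand gene SYN3, in which TIMP3 lies, had 0 or 1 count.

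Set directly against each other, shHMGA2-2 was lower than shHMGA2-1 for 3 of the 10 genes and higher for 3, where 25.7% and 24.5% of all genes were called. At least 2-fold, 2 were lower and 2 were higher, against 7.27% and 7.83%. With the 4 shHMGA2 libraries pooled against shNC, where the gap between the lines counts as error, only MMP14 (log2 fold change -0.67 ± 0.09 SE, adjusted p = 0.013) and MMP16 (-1.10 ± 0.20, adjusted p = 0.031) were lower and none was higher (2.92% and 2.34% of all genes). MMP1 did not pass (-2.57 ± 1.04, adjusted p = 0.19) although each line passed alone. The pooled calls of MMP14 were lost without shNC replicate 1 (adjusted p = 0.196) or 2 (0.178), and those of MMP16 without any library but shHMGA2-1 replicate 2 (adjusted p = 0.0605 to 0.272).

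The protease to inhibitor balance was lower in both knockdown lines. Summed over the 7 proteases, FPKM was 55.6 and 54.8 for shNC, 36.0 and 33.4 for shHMGA2-1, then 36.5 and 38.2 for shHMGA2-2. Summed over the 3 inhibitors, it was 94.9 and 97.5 for shNC, 104 and 93.0 for shHMGA2-1, then 117 and 130 for shHMGA2-2. The protease sum of every knockdown library lay below both controls, while the inhibitor sum of shHMGA2-1 spanned the controls and that of shHMGA2-2 lay above them. The ratio of the sums was 0.586 and 0.562 for shNC, 0.348 and 0.359 for shHMGA2-1, then 0.312 and 0.293 for shHMGA2-2, with no overlap between lines.

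On the log2 scale the ratio changed by -0.70 ± 0.05 in shHMGA2-1 and by -0.92 ± 0.08 in shHMGA2-2 (SD of the difference, n = 2 against 2), and no test was applied to it. MMP14 made up 88.3% to 93.6% of the protease sum in every library, so the protease side of the balance mostly describes MMP14. The balance also depends on the inhibitor sum. Without MMP14 the shHMGA2-2 change was -1.64, and without TIMP1 it was -0.60. The share of TIMP1 in the inhibitor sum was 25.4% and 26.5% for shNC, 35.0% and 31.6% for shHMGA2-1, then 40.8% and 41.1% for shHMGA2-2, and that of TIMP3 did not exceed 0.585%.

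Single pairs gave the same order of lines only in part. MMP14 over TIMP2 was 0.690 ± 0.0211 in shNC (SD, n = 2), 0.474 ± 0.00821 in shHMGA2-1 and 0.483 ± 0.0203 in shHMGA2-2, where the knockdown lines overlapped. MMP1 over TIMP1 was 0.138 ± 0.000906 in shNC, 0.0348 ± 0.00513 in shHMGA2-1 and 0.00158 ± 0.00106 in shHMGA2-2, with no overlap. These ratios compare transcripts within a library and do not depend on how libraries are scaled.

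Of the other MMP and TIMP genes of the table, 17 in number, 12 did not exceed 3 counts in any library. MMP7, MMP8, MMP12, MMP13, MMP20, MMP26 and MMP27 were at 0 counts in every library. MMP2 and MMP9, the gelatinases, had 0 to 2 and 0 to 1 counts, MMP10 had 0 to 2, and MMP23B and MMP28 had 0 to 3. MMP3, or stromelysin, had 7 and 7 counts for shNC, 3 and 1 for shHMGA2-1, then 2 and 2 for shHMGA2-2, and did not pass the filter. MMP25 had 1 to 7 counts and TIMP4 2 to 10. MMP11 (8 to 26 counts) and MMP21 (9 to 22) were tested and not called in any comparison. Summed over the libraries of each line, both had more counts than MMP17. The median log2 fold change of the latter pair was -0.58 in shHMGA2-1 and -0.71 in shHMGA2-2. No change of a gene at or under 3 counts was detectable at this depth.

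The enzymes and receptors that act on MMPs changed in both directions. Of 25 activators, inhibitors and receptors 23 were tested, and 11 were lower and 7 were higher in shHMGA2-1, with a median log2 fold change of -0.23 (all genes, 17.6% lower and 15.8% higher, median 0.01). In shHMGA2-2, 9 were lower and 6 were higher, with a median of 0.10 (all genes, 29.2% and 29.5%, median 0.03). FURIN, the convertase that removes the prodomain of membrane-bound MMPs, had 899 and 915 counts for shNC, 700 and 608 for shHMGA2-1, then 1522 and 1839 for shHMGA2-2. It fell in shHMGA2-1 (-0.55 ± 0.10 SE, adjusted p = 7.1e-05) and rose in shHMGA2-2 (0.81 ± 0.09, adjusted p = 4.1e-08), and the libraries of the lines did not overlap. PLAU, the urokinase that makes plasmin, had 1425 and 1687 counts in shNC and 4814 to 5971 in the knockdown libraries. It rose 3.06-fold in shHMGA2-1 (adjusted p = 3.3e-14) and 3.53-fold in shHMGA2-2 (adjusted p = 3.8e-16).

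BSG, also called EMMPRIN, a surface protein known to induce MMPs in neighbouring cells, had 6878 to 8675 counts. It fell by 0.31 on the log2 scale in shHMGA2-1 (adjusted p = 0.00048), and its value in shHMGA2-2 was -0.14 (adjusted p = 0.064). RECK, a membrane-anchored MMP inhibitor, had 311 and 286 counts for shNC, 511 and 580 for shHMGA2-1, then 355 and 389 for shHMGA2-2. It rose in shHMGA2-1 (0.79 ± 0.11 SE, adjusted p = 5.5e-06), and its value in shHMGA2-2 was 0.24 (adjusted p = 0.085). TFPI2, a protease inhibitor of the matrix, rose in both lines, by 0.42 (adjusted p = 0.019) and 0.63 (adjusted p = 0.00025).

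ITGA2, the collagen-binding integrin chain, fell 2.69-fold in shHMGA2-1 (adjusted p = 6.8e-13) and 3.97-fold in shHMGA2-2 (adjusted p = 2.7e-16). SPOCK1, a matrix proteoglycan, had 0 and 5 counts for shNC, 13 and 19 for shHMGA2-1, then 214 and 182 for shHMGA2-2, and rose in both lines (adjusted p = 0.004 and 3.3e-12). THBS1, the matricellular protein thrombospondin, had 3072 and 3086 counts for shNC, 1486 and 1353 for shHMGA2-1, then 12097 and 12310 for shHMGA2-2. It fell 2.29-fold in the former line (adjusted p = 7.6e-13) and rose 3.75-fold in the latter (adjusted p = 7.3e-18).

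Of 28 matrix and surface substrates of MMPs 16 were tested, and 5 were lower and 4 were higher in shHMGA2-1 (median log2 fold change -0.03), where 17.6% and 15.8% of all genes were. In shHMGA2-2, 6 were lower and 7 were higher (median 0.17), beside 29.2% and 29.5% of all genes. FN1, or fibronectin, had 4187 and 4377 counts for shNC, 321 and 293 for shHMGA2-1, then 177 and 162 for shHMGA2-2. It fell 14.7-fold (adjusted p = 6e-20) and 26.7-fold (adjusted p = 4.9e-22). TNC, or tenascin C, had 192 and 210 counts in shNC and 189 and 219 in shHMGA2-2 but 8 and 5 in shHMGA2-1, where it fell 32.0-fold (adjusted p = 4.9e-13).

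LAMB3, a laminin chain of the basement membrane, fell 2.64-fold in shHMGA2-1 (adjusted p = 1.1e-12) and rose 2.45-fold in shHMGA2-2 (adjusted p = 2.1e-13). BCAN, a proteoglycan best known from brain, had 14 and 24 counts for shNC, 37 and 27 for shHMGA2-1, then 1 and 2 for shHMGA2-2. The ratio of shNC to shHMGA2-2 was 13.4 with a counting interval of 4.25 to 67.8 (adjusted p = 0.00011), and the value in shHMGA2-1 was 0.67 on the log2 scale (adjusted p = 0.24).

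AP-1 and ETS factors are known activators of several MMP promoters. Of 19 on the list 17 were tested, and 8 were lower and 2 were higher in shHMGA2-1 (median -0.15), where 17.6% and 15.8% of all genes were. In shHMGA2-2, 9 were lower and 7 were higher (median -0.23), beside 29.2% and 29.5% of all genes. RUNX2, a runt-domain factor on this list for its known role at MMP genes, had 549 and 505 counts for shNC, 102 and 108 for shHMGA2-1, then 417 and 416 for shHMGA2-2, and fell in both (log2 fold change -2.40, adjusted p = 4.2e-13, and -0.42, adjusted p = 0.0017). FOSL1, an AP-1 subunit, fell by 0.54 (adjusted p = 5.1e-06) and by 1.02 (adjusted p = 4.8e-11) on the log2 scale. BACH1, a leucine zipper factor that binds AP-1-like sites, fell by 0.58 (adjusted p = 1.4e-05) and by 1.41 (adjusted p = 2.8e-12). FOSL2, another AP-1 subunit, fell by 0.35 in shHMGA2-1 (adjusted p = 0.00077) and rose by 1.05 in shHMGA2-2 (adjusted p = 7.2e-12).

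**Figure D3:**
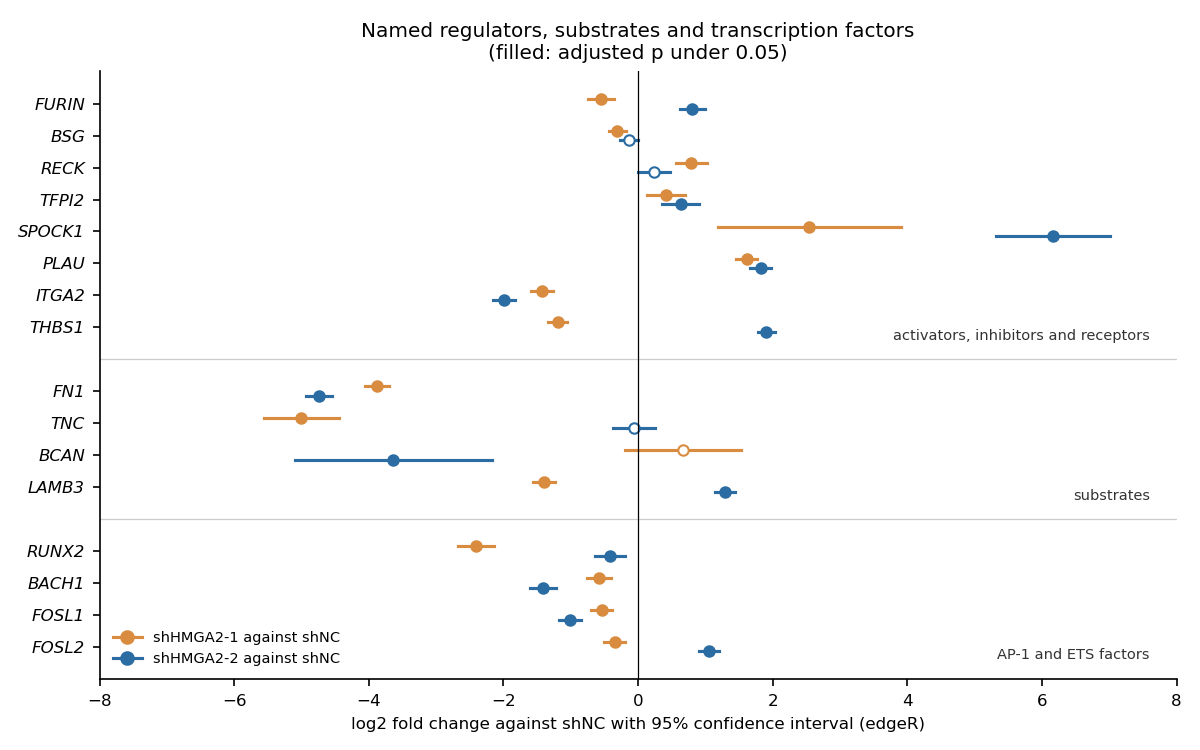
log2 fold change against shNC (x axis) with its 95% confidence interval, edgeR, for the named regulators, substrates and transcription factors (y axis), filled points having an adjusted p under 0.05. FURIN, THBS1, LAMB3 and FOSL2 lie on opposite sides of 0 in the lines, while FN1, ITGA2 and FOSL1 lie below 0 and PLAU above 0 in both.

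Over the 6 libraries, the genes whose centred log2 CPM lay closest to that of MMP1 by Euclidean distance were THRB (distance 0.564), ENSG00000285904 (0.565), ESM1 (0.588), SUN3 (0.604) and POU3F2 (0.609). THRB, which encodes a thyroid hormone receptor, had 251 and 246 counts for shNC, 93 and 106 for shHMGA2-1, then 7 and 3 for shHMGA2-2. ESM1, which encodes the secreted proteoglycan endocan, had 79 and 70, 17 and 27, and 2 and 0 counts in that order of lines. The points of this measure share the same 6 libraries, so it describes likeness in these lines only.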

How the data were processed

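RNA-seq libraries of MDA-MB-231 cells were analysed, 2 each of shNC, shHMGA2-1 and shHMGA2-2, grouped by sample titles. The authors deposited raw counts per gene (whole numbers, not normalized) and FPKM values; dividing each count by its gene’s exonic size and its library’s total gave these FPKM values back within 0.005 in 100% of cases. Per the submitters' processing notes, HISAT2 version 2.2.1, HTSeq version 0.6.1 and GRCh38.p13 were used. The strand setting is not given in the sources used here, so antisense and overlapping genes may share reads. Columns of samples left unused numbered 0, and the annotation columns were used only for names, positions and sizes.

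Counts were tested with edgeR version 4.0.16 in R version 4.3.3: TMM scaling, filterByExpr by group, a model with 3 groups, and quasi-likelihood F tests, adjusted over 16110 genes by Benjamini-Hochberg (call, adjusted p under 0.05; also at least 2-fold where stated). The 4 shHMGA2 libraries were also pooled against shNC. A floor of 3 counts (0.172 to 0.185 CPM) stood for what an observed 0 could hide; this floor and the Clopper-Pearson intervals cover counting error only. On simulated counts of 16110 genes for shHMGA2-1 against shNC, 190 of 200 genes changed 4-fold were recovered with 9 false calls. The simulation gave every gene and line the same spread, so its false calls need not hold for these data. The study names DESeq2; DESeq2 version 1.42.0, limma version 3.58.1 on log2(FPKM + pseudocount of 1 or 0.1), upper quartile scaling, no filter, the replicate number as a block and leaving out each library were alternatives. Sequences were read in python version 3.11.15 from the RefSeq promoter table, and primers were matched to GENCODE 29 transcripts.

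The genes and lists were chosen with earlier results of these data known. Named were all 10 genes and the other MMP and TIMP genes; FURIN, BSG, RECK and TFPI2 and the 4 regulators with the largest change among those past 2-fold in both lines; the 4 substrates with the largest mean change among those past 2-fold in a line; the 4 AP-1 and ETS factors with the largest change among those called in both lines; and the 5 genes most like MMP1. MMP3 and the marker and overlapping genes were given for their counts.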

Additional observations from a re-analysis of the deposited data

Results flagged for a closer look

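The direct comparison of shHMGA2-2 with shHMGA2-1 (edgeR, adjusted p under 0.05) passed the threshold for MMP1, MMP15, MMP17, MMP19 and TIMP1, and for TIMP3. TIMP3 entered the test only through the shHMGA2-2 libraries and so had to differ. MMP17 entered it only through libraries of the other lines, which favours a lower value in shHMGA2-2. The log2 difference was -3.87 for MMP1 (adjusted p = 2.4e-08), 1.07 for MMP15 (adjusted p = 0.01), -2.64 for MMP17 (adjusted p = 0.018), -0.94 for MMP19 (adjusted p = 0.0039), 0.57 for TIMP1 (adjusted p = 2.4e-05) and a fitted 5.46 for TIMP3 (adjusted p = 5.6e-07), which is no bound since shHMGA2-1 had 2 counts. HMGA2 itself was lower in shHMGA2-2 than in shHMGA2-1 by 1.01 on the log2 scale (adjusted p = 3.1e-09). Whether these differences follow the depth of knockdown, the hairpin or the clone was not tested.

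Among the regulators, the log2 difference between the lines was 1.36 for FURIN, 0.17 for BSG, -0.56 for RECK, 3.62 for SPOCK1, 0.21 for PLAU, -0.56 for ITGA2 and 3.10 for THBS1. Among the substrates it was -0.86 for FN1, 4.94 for TNC, -4.30 for BCAN and 2.69 for LAMB3. Among the AP-1 and ETS factors it was 1.98 for RUNX2, -0.83 for BACH1, -0.47 for FOSL1 and 1.40 for FOSL2. All passed edgeR's test, in a comparison in which 25.7% of all genes were lower and 24.5% were higher.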

How the results depend on the processing

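Of 227 alternative values of the gene changes called in the comparisons between lines, 192 kept their direction and call, 35 kept only the direction and 0 reversed. MMP1, MMP14 and, in shHMGA2-2, TIMP1 and MMP16 kept theirs in each. TIMP3 kept its call in all 11 alternatives of either comparison, and these are counted in the 192. It entered the test only through the shHMGA2-2 libraries, so they say nothing about stability. With limma on log2(FPKM + 1) and on log2(FPKM + 0.1), where a mean FPKM of at least 1 leaves 4 of the genes to test, 3 were called in shHMGA2-1 and 3 in shHMGA2-2, 2 between the lines and 1 in the pooled comparison; without the filter limma called 2 in shHMGA2-1, 3 between the lines and 0 pooled. The mean of the hairpin contrasts called 6 genes where pooling called 2. Leaving out a library gave 3 to 6 called genes in shHMGA2-1, 5 to 7 in shHMGA2-2, 4 to 6 between the lines and 0 to 2 pooled. Replicate numbers were shared across lines as numbers only (correlations of deviations -0.02, 0.00 and -0.10); with the replicate number as a block 5, 7 and 6 genes were called in the comparisons between lines, TIMP2 being lost in shHMGA2-1 (adjusted p = 0.0569), and 0 pooled. The change of the balance in shHMGA2-1 was -0.59 with raw counts and -0.55 without TIMP1, and in shHMGA2-2 -0.69, -0.60 and, without MMP14, -1.64. Leaving out a library gave -0.73 to -0.67 and -0.97 to -0.88.

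Signs turned only where no call was made. In shHMGA2-2, TIMP2 was 0.02 with upper quartile scaling and in each limma fit (0.0158, 0.0187, 0.0189), and MMP19 was 0.0829 and, with unfiltered limma, 0.0296. Leaving out a library gave -0.31 to 0.31 for MMP19 in shHMGA2-2, -0.28 to 0.47 for MMP15 and -0.66 to 1.62 for MMP17 in shHMGA2-1, -0.41 to 0.17 for MMP16 between the lines, and -1.45 to 0.83 for MMP17 pooled. The cause was not tested. The fold of limma on log2(FPKM + pseudocount) understates the change of low genes, and depth limits MMP15, MMP17, MMP19, MMP24 and TIMP3, which held at most 100 counts in any library.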
